A study of Homo sapiens with 68 samples.

Results

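A673 Ewing sarcoma cells exposed to cytarabine (ARA-C) at 0.17 µM, labeled as the EC50, were profiled after 24 h, and the genes outside mitosis that had changed by then are described here. By their titles, 3 arrays hold these treated cells and 6 hold cells given the DMSO vehicle for 24 h, together 9 of the 68 arrays of the series. The other groups used for comparison are cells on 0.34 µM ARA-C for 24 h (2xEC50, n = 3), cells on doxorubicin at 59.88 nM for 24 h (EC50, n = 3), and cells on 0.17 µM ARA-C for 3 or 5 days (n = 3 each) with vehicle cells of day 3 (n = 5) and day 5 (n = 6). The model behind every 24 h p-value also held 3 cultures on doxorubicin at 119.76 nM (2xEC50) and 3 each on puromycin, an inhibitor of translation, at 0.09 µM and 0.18 µM (EC50 and 2xEC50), all for 24 h, which entered only through the shared estimate of spread. All cells are the parental line, grown in serum without an added construct, and they carry the EWS/FLI fusion in every group, the vehicle cells included. Titles call the replicates biological. They are cultures of 1 line, so p-values measure the spread between cultures of A673 cells. RNA came from bulk cultures, in which fewer cells of a type and less RNA per cell cannot be told apart.

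ARA-C is a cytosine nucleoside analog. Cells take it up through nucleoside transporters, deoxycytidine kinase adds the first phosphate, and the triphosphate enters growing DNA chains and slows the replication fork. Cells with stalled forks gather in S phase, where E2F-driven genes of the G1/S transition and of DNA replication are on and genes of mitosis are not yet on. Checkpoint kinases, p53, interferon and stress pathways can answer a stalled fork. Ewing sarcoma arises from the fusion of EWSR1 with an ETS factor gene, most often FLI1, and its cells show both neural and mesenchymal genes.

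Signals on the 9 arrays were MAS5 intensities on a linear scale with a common array mean. Their medians ran from 106 to 134, and 19.5% to 21.3% of the values per array were below 10, the floor set before log2, so changes of dim genes are understated. The log2 ratio of 3′ to 5′ control signals for ACTB, a measure of RNA integrity, was 1.79 ± 0.35 (SD, n = 3) in ARA-C cultures and 0.817 ± 0.242 (SD, n = 6) in vehicle cultures (two-sided exact permutation p = 0.0119, the smallest that 84 relabelings allow), with no overlap of the arrays. For GAPDH it was 0.566 ± 0.0863 and 0.233 ± 0.118 (exact permutation p = 0.0119). RNA integrity thus moved with treatment, and its part in the results was not tested. The ratio was also higher in treated cells of day 3 (ACTB 1.31 in ARA-C cultures and 0.533 in vehicle cultures) and day 5 (3.71 and 1.29), while cells on 2xEC50 for 24 h had 0.657. The ARA-C arrays and vehicle replicates 1 to 3 came from plate rows A-F, and vehicle replicates 4 to 6 and the 2xEC50 arrays from rows G-H, so each named change was also fitted with plate part as a block. Of 6 measured Ewing sarcoma markers 1 (BCL11B) fell and 5 did not pass the test. None of 10 blood cell markers passed it, with summed signals of 230 to 335 in ARA-C and 160 to 245 in vehicle cultures. Of 11 epithelial markers 1 rose (KRT18, not past the threshold with the plate block), and their sums were 16938 to 18159 in ARA-C and 13544 to 15406 in vehicle cultures.

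After 24 h on ARA-C, more probe sets were lower than higher. Probe sets are sets of oligonucleotides designed to read a transcript, though some match several genes (125 carry several symbols). Of 22215 probe sets 1281 were higher (5.77%) and 1850 lower (8.33%) at an adjusted p under 0.05 (limma on log2 signals). With quantile normalization the split was 2015 higher and 1933 lower. Where each of 11882 genes was represented by its brightest probe set, 897 rose (7.55%) and 994 fell (8.37%), and these shares are the background for the gene groups below. All 3 ARA-C arrays lay above all 6 vehicle arrays for 11.02% of the genes and below them for 13.35%. The counts leaned on single cultures. Without ARA-C replicate 2, 672 probe sets were higher, and without ARA-C replicate 3, 566 were lower.

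The largest rises outside mitosis ran from 2.82 (CEACAM1) to 2.24 (APOL6) on the log2 scale. They were the 15 largest among probe sets that passed the test, also with the plate block, and in which the ARA-C and vehicle arrays did not overlap, so that neither the calls nor the lack of overlap are further results. VDR, which encodes the nuclear receptor for vitamin D (chromosome 12, 47841537 to 47904994 of GRCh38.p14), had signals of 429.7, 385 and 345 in the 3 ARA-C cultures, against 56.8 to 78.1 (median 59.8) in the 6 vehicle cultures. Its log2 change was 2.64 (SE 0.21, adjusted p = 1.0e-07). EGR4, an immediate early zinc finger factor gene (chromosome 2, 73290929 to 73293548), had 243, 319 and 248 in ARA-C cultures, against 37.7 to 90.5 (median 45.5) in vehicle cultures, a change of 2.45 (SE 0.31, adjusted p = 2.1e-05). For both genes the lowest treated culture was well over the highest vehicle culture.

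Several of these genes act at the cell surface. CEACAM1, a homophilic adhesion molecule of the immunoglobulin superfamily (chromosome 19, 42507306 to 42528481), showed the largest rise, with signals of 391, 363 and 307 in ARA-C cultures and 27.9 to 65.96 (median 55.3) in vehicle cultures (2.82 (SE 0.43, adjusted p = 0.000202)). ARTN encodes artemin, a ligand of the GDNF family that supports sensory and sympathetic neurons (chromosome 1, 43933801 to 43937240). Its signals were 181, 169 and 143 in ARA-C cultures, against 2.20 to 69.1 (median 27.1) in vehicle cultures (2.73 (SE 0.48, adjusted p = 0.00075)), and the vehicle cultures spread over both sides of the floor. EFNA1, a membrane-bound ligand of Eph receptors, had 135, 107 and 95.1 in ARA-C cultures and 6.69 to 39.997 (median 20.2) in vehicle cultures (2.55 (SE 0.48, adjusted p = 0.00122)). GPR17, an orphan receptor related to nucleotide and leukotriene receptors, lay under the floor in all but 1 vehicle culture, with 62.7, 89.1 and 71.1 in ARA-C cultures and 1.91 to 24.9 (median 2.64) in vehicle cultures (2.66 (SE 0.39, adjusted p = 0.000108)). CACNA1I, a T-type calcium channel gene, and BCAM, a laminin-binding adhesion molecule gene, changed by 2.27 (SE 0.40) and 2.24 (SE 0.56). The call for BCAM was lost without ARA-C replicate 2 (adjusted p = 0.0597).

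Other genes of the 15 encode enzymes and secreted proteins. ACACB encodes the acetyl-CoA carboxylase that makes malonyl-CoA at the mitochondrial surface (chromosome 12, 109111189 to 109268226). Its signals were 269.9, 384 and 247 in ARA-C cultures, against 29.4 to 79.962 (median 64.9) in vehicle cultures (2.30 (SE 0.37, adjusted p = 0.0003)). APOBEC3G, a cytidine deaminase that restricts retroviruses, had 175, 237 and 169.8 in ARA-C cultures and 9.79 to 64.021 (median 42.4) in vehicle cultures (2.43 (SE 0.46, adjusted p = 0.00136)). SELENOP, a selenium carrier, DUOX1, an oxidase that makes hydrogen peroxide, and APOL6, an apolipoprotein L gene, changed by 2.31 (SE 0.46), 2.31 (SE 0.47) and 2.24 (SE 0.57). The call for APOL6 was lost without ARA-C replicate 1 (adjusted p = 0.0648). For TGM2, a protein cross-linking enzyme, and AGO2, the slicer of RNA interference, the rise came from a dimmer probe set (2.32 (SE 0.46) and 2.61 (SE 0.33)), and their brightest probe sets did not pass the test, with changes of 1.11 and -0.16. The other 13 of the 15 rises were at the brightest probe set of their gene.

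**Figure D1:**
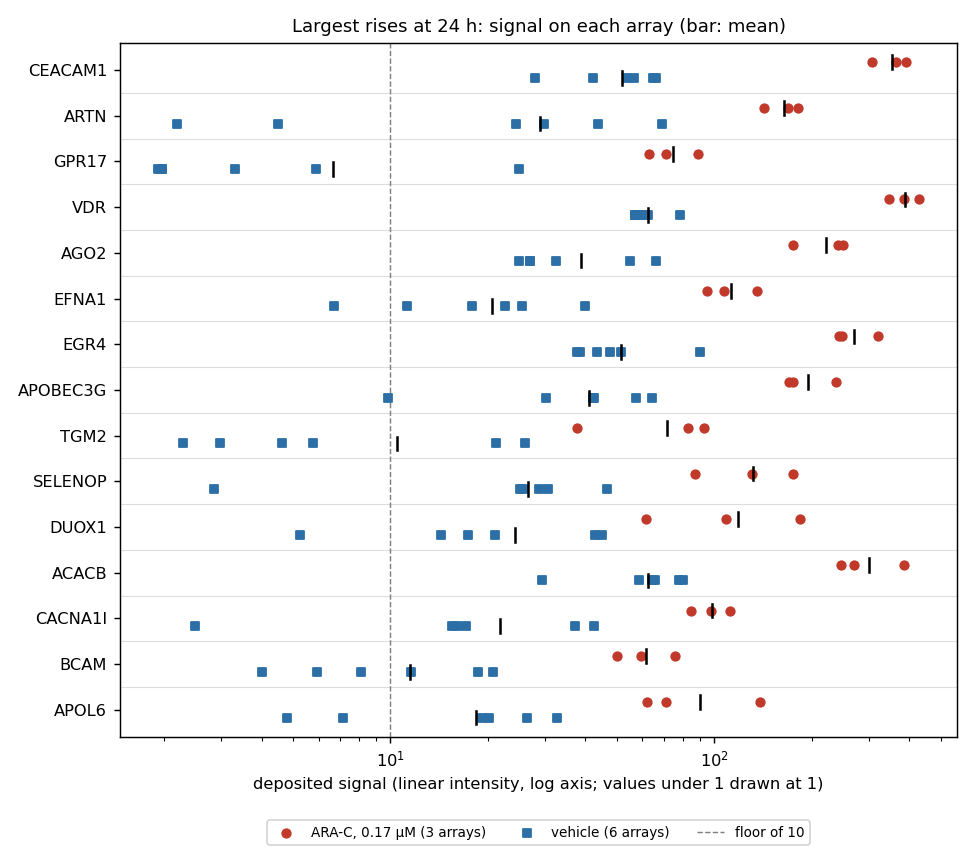
Deposited signals (linear intensity on a log axis) of the 15 largest rises outside mitosis at 24 h, with the 3 ARA-C arrays as red circles above the 6 vehicle arrays as blue squares, black bars for group means and a dashed line at the floor of 10. Every ARA-C array lies above every vehicle array, which the choice of genes required, and for GPR17 all but 1 vehicle array lie under the floor.

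The largest falls rested mostly on dim probe sets. Of the 15 largest falls chosen in the same way, 4 were at the brightest probe set of the gene. Of the other 11, 2 (SMTN and FLI1) were also called lower at the brightest probe set. Among all 1672 falls with a gene symbol, 678 (40.6%) came from a dimmer probe set, and of those genes 191 were also lower at the brightest one, 31 were higher there and 456 did not pass. The median change in these 678 was -0.87 at the dimmer and -0.19 at the brightest probe set. Of the 1165 rises 268 (23%) came from a dimmer probe set. Probe sets of 1 gene can read different transcript ends, and RNA integrity differed between the groups as given above and its part was not tested.

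PPP3R1, which encodes the regulatory subunit of the phosphatase calcineurin, had the largest fall, with signals of 35.5, 3.34 and 36.7 in ARA-C cultures and 137 to 1019 (median 325) in vehicle cultures (-3.74 (SE 0.72, adjusted p = 0.00152)). Its brightest probe set gave -0.78, which did not pass (adjusted p = 0.0582). CSTF2T, a paralog of an mRNA 3′ end cleavage factor gene, was lower at a dimmer probe set (-2.46 (SE 0.44, adjusted p = 0.000902)) and higher at its brightest (0.41 (SE 0.14, adjusted p = 0.0495)), a call lost with the plate block (adjusted p = 0.298) and in 8 of the 9 fits without 1 array. Dimmer probe sets also carried the falls of AP1S1 (clathrin adaptor), SMAD3 (TGF-β effector), STRN (striatin), VDAC3 (mitochondrial channel), SMTN (smoothelin), FBXO38 (ubiquitin ligase subunit), ATM (DNA damage kinase) and SRSF5 (splicing factor), between -2.66 and -2.04. FLI1, the fusion partner gene, was the last of the 15 (-2.02). Of the 8 genes SMTN was called lower at its brightest probe set too (-1.34, adjusted p = 0.00636), and the other 7 did not pass there. The fall of AP1S1 was lost without ARA-C replicate 3 (adjusted p = 0.148), that of SMAD3 without ARA-C replicate 2 (adjusted p = 0.0592) or ARA-C replicate 3 (adjusted p = 0.0631), that of VDAC3 without ARA-C replicate 1 (adjusted p = 0.0939) or ARA-C replicate 3 (adjusted p = 0.064) and that of SRSF5 without ARA-C replicate 2 (adjusted p = 0.0815) or ARA-C replicate 3 (adjusted p = 0.0549).

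**Figure D2:**
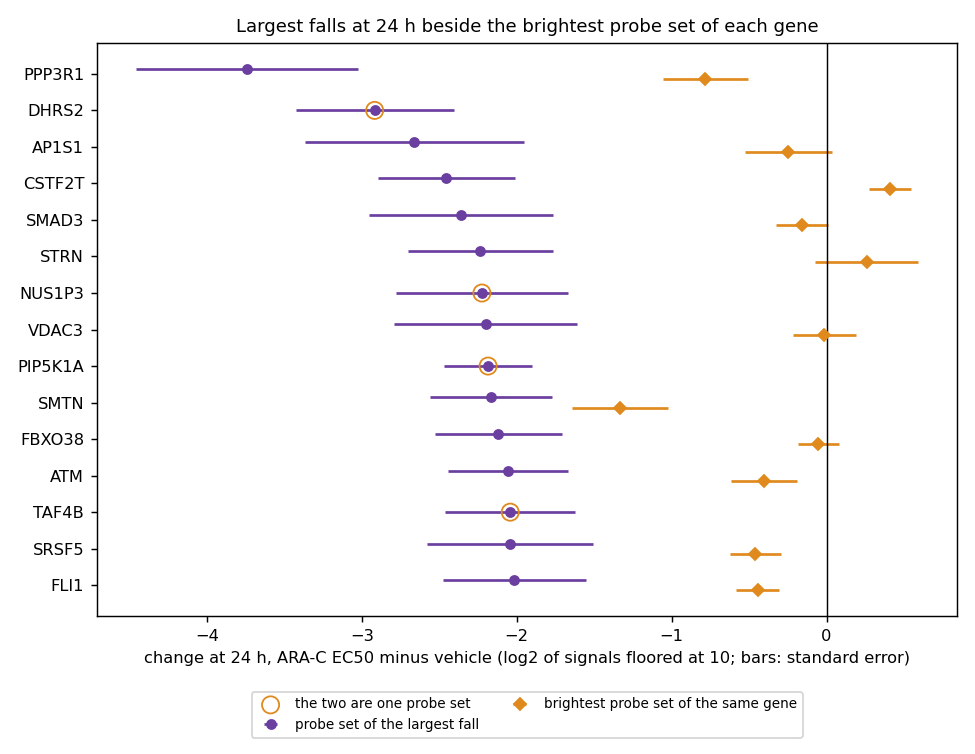
Log2 change at 24 h (ARA-C EC50 minus vehicle, signals floored at 10, bars for the standard error) of the 15 largest falls outside mitosis, as purple circles, beside the brightest probe set of the same gene, as orange diamonds, or ringed where both are 1 probe set. Most diamonds lie near 0, and 4 of the 15 genes are ringed.

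The falls of 4 genes were at their brightest probe set. PIP5K1A, a lipid kinase that makes phosphatidylinositol bisphosphate (chromosome 1, 151195419 to 151249531), had 221, 367 and 313 in ARA-C cultures, against 1026 to 1685 (median 1380.5) in vehicle cultures (-2.18 (SE 0.28, adjusted p = 2.8e-05)). DHRS2, a short-chain dehydrogenase gene (chromosome 14, 23630115 to 23645639), had 22.5, 21.1 and 5.03 in ARA-C cultures and 75.7 to 219.6 (median 132) in vehicle cultures (-2.92 (SE 0.51, adjusted p = 0.000699)). In both genes the highest treated culture was under the lowest vehicle culture, which the choice of genes required. TAF4B, a subunit of the general factor TFIID, fell by 2.04 on the log2 scale (adjusted p = 0.00272). NUS1P3, a pseudogene of NUS1 whose probes may also read its parent, was lower by a change of -2.22 (SE 0.56), and its call was lost without ARA-C replicate 2 (adjusted p = 0.0732) or ARA-C replicate 3 (adjusted p = 0.0838).

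The next falls at brightest probe sets were listed after their values were seen. NCAPD2, a condensin subunit that compacts mitotic chromosomes although it was outside the mitosis list (chromosome 12, 6494102 to 6531955), had 447, 424 and 464 in ARA-C cultures, against 1149 to 1674 (median 1417) in vehicle cultures (-1.65 (SE 0.19, adjusted p = 1.2e-05)). PFDN6, a prefoldin chaperone subunit, had 251, 255 and 311 in ARA-C cultures and 692 to 1076 (median 912) in vehicle cultures (-1.73 (SE 0.30, adjusted p = 0.000646)). NEAT1, the long noncoding RNA of paraspeckles, had 12.1, 15.4 and 14.9 in ARA-C cultures, against 32.7 to 86.7 (median 56.036) in vehicle cultures (-1.98 (SE 0.42, adjusted p = 0.00357)). With a floor of 32 in place of 10 the call for NEAT1 was lost, as were those of STMN2, STRN, SMAD3, VDAC3, SRSF5 and CXCL2. LIG4, the ligase of DNA end joining, FCF1, which acts in ribosomal RNA processing, CLDND1, ABHD17B and EML4 changed by -1.79, -1.69, -1.78, -1.63 and -1.59. Each of these 5 calls was lost without ARA-C replicate 2 and without ARA-C replicate 3, for LIG4 without ARA-C replicate 2 (adjusted p = 0.097) or ARA-C replicate 3 (adjusted p = 0.0718), and for EML4 without ARA-C replicate 2 (adjusted p = 0.107) or ARA-C replicate 3 (adjusted p = 0.0793). For FCF1 this was without ARA-C replicate 2 (adjusted p = 0.0504) or ARA-C replicate 3 (adjusted p = 0.0561), for CLDND1 without ARA-C replicate 2 (adjusted p = 0.0541) or ARA-C replicate 3 (adjusted p = 0.0565) and for ABHD17B without ARA-C replicate 2 (adjusted p = 0.123) or ARA-C replicate 3 (adjusted p = 0.0999).

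Some genes of the G1/S transition and of S phase rose and some fell, while mitosis genes fell almost as a group. Of 28 measured genes for G1/S cyclins, E2F factors and CDK inhibitors 5 rose and 3 fell, of 36 for DNA replication 6 rose and 2 fell, and of 26 for nucleotide and cytosine nucleoside metabolism 4 rose and 2 fell, against 7.55% and 8.37% of all genes. Their median changes were 0.13, -0.05 and 0.00, and that of all genes was 0.00. For comparison, 24 of 30 mitosis genes fell, none rose, and the median was -0.77. With the plate block, under which 642 of all genes rose and 1131 fell, the counts were 4 rises and 3 falls for the G1/S genes (median 0.01), 4 and 4 for DNA replication (median -0.10) and 3 and 4 for nucleotide metabolism (median -0.02). Most genes of the 3 groups did not pass the test.

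CCNE1, which encodes cyclin E1, the partner of CDK2 at S phase entry (chromosome 19, 29811991 to 29824312), had 1263, 1145 and 1194 in ARA-C cultures, against 450.1 to 577 (median 487) in vehicle cultures. This change of 1.28 (SE 0.13, adjusted p = 2.1e-06) was the largest of the G1/S group. SKP2, which marks the CDK inhibitor p27 for degradation, had 13128, 15948 and 14941 in ARA-C cultures and 8887 to 10107 (median 9141) in vehicle cultures (0.65 (SE 0.14, adjusted p = 0.00443)). FEN1, the flap endonuclease that trims Okazaki fragments (chromosome 11, 61792911 to 61797238), had 9685, 10575 and 10754 in ARA-C cultures and 5863 to 6989.8 (median 6652) in vehicle cultures (0.66 (SE 0.11, adjusted p = 0.000417)). GINS3, a subunit of the replicative helicase, rose by 0.63 (SE 0.11), and DUT, which clears dUTP, by 0.36 (SE 0.08). TK1, the thymidine kinase of S phase, rose by 0.61 (SE 0.15), a call lost with the plate block (adjusted p = 0.0542) and without ARA-C replicate 3 (adjusted p = 0.0982). E2F5, a repressive E2F factor gene, was lower by a change of -1.001 (SE 0.27), lost without ARA-C replicate 3 (adjusted p = 0.128).

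Among genes of nucleotide and cytosine nucleoside metabolism, UCK2, which phosphorylates uridine and cytidine, had 1978, 1553 and 1725 in ARA-C cultures, against 2817 to 3331 (median 2931) in vehicle cultures (-0.77 (SE 0.12, adjusted p = 0.000264)). SLC29A2, an equilibrative nucleoside transporter gene, had 419, 350.2 and 321 in ARA-C cultures and 544 to 695 (median 643) in vehicle cultures (-0.80 (SE 0.17, adjusted p = 0.00267)). Both fell without overlap of the groups, and over all genes the ARA-C arrays lay below all vehicle arrays for 13.35%. Both genes were named for large changes that passed, so the lack of overlap is partly built in. DCK, the kinase that activates ARA-C, did not pass the test (0.37 (SE 0.15, adjusted p = 0.0975)), nor did the deaminase CDA (0.23 (SE 0.40, adjusted p = 0.795)), the transporter SLC29A1 (-0.78 (SE 0.41, adjusted p = 0.227)) or the triphosphohydrolase SAMHD1 (-0.10 (SE 0.20, adjusted p = 0.837)). In 2 of 12 other settings, only the compared arrays and quantile normalization, DCK passed.

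In the DNA damage and repair group 6 of 31 genes rose (4 with the plate block) and none fell (median change -0.08). The counts here stand beside 7.55% of all genes higher and 8.37% lower. With the plate block 642 of all 11882 genes rose and 1131 fell. FANCI, a subunit of the Fanconi anemia complex that protects stalled forks (chromosome 15, 89243979 to 89317259), had 5681, 5144 and 5573 in ARA-C cultures, against 3484 to 4133 (median 3615) in vehicle cultures (0.56 (SE 0.07, adjusted p = 3.4e-05)). ATR, the kinase that senses stalled forks, had 1850.4, 1813 and 1745 in ARA-C cultures and 1186 to 1481 (median 1298) in vehicle cultures (0.45 (SE 0.10, adjusted p = 0.00384)). FANCG rose by 0.54 (SE 0.11). Of 21 p53 target genes 4 rose and none fell (median 0.26), and with the plate block 3 rose and 2 fell. GDF15, a secreted stress factor of the TGF-β family, had 356, 252 and 223 in ARA-C cultures and 93.5 to 194 (median 132) in vehicle cultures (1.02 (SE 0.31, adjusted p = 0.0314)). Its call was lost without ARA-C replicate 1 (adjusted p = 0.142), ARA-C replicate 2 (adjusted p = 0.0863), ARA-C replicate 3 (adjusted p = 0.0633), vehicle replicate 1 (adjusted p = 0.0645), vehicle replicate 2 (adjusted p = 0.0565) or vehicle replicate 3 (adjusted p = 0.0572). Of 11 histone genes with polyadenylated transcripts 3 fell and none rose (median -0.33). H3-3B, a replacement histone gene, had 8463, 7619 and 8109.7 in ARA-C cultures, against 9809 to 12254 (median 12067) in vehicle cultures (-0.51 (SE 0.08, adjusted p = 0.00026)), and H1-10 changed by -0.93 (SE 0.20).

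Of the 40 gene lists, ribosome biogenesis had the largest share of falls after mitosis. Of 20 measured genes 9 fell (8 with the plate block) and none rose, with a median of -0.25, against 8.37% of all genes lower and 7.55% higher. At 2xEC50 for 24 h 1 of these genes fell and none rose (median -0.24), where 1.81% of all genes were lower. RRS1, needed for assembly of the large ribosomal subunit, had 2277, 1566 and 1708 in ARA-C cultures, against 3011 to 4081 (median 3775) in vehicle cultures (-0.97 (SE 0.18, adjusted p = 0.00107)). PNO1, an assembly factor of the small subunit, had 2522, 2058 and 2031 in ARA-C cultures and 3679 to 4379 (median 4126) in vehicle cultures (-0.90 (SE 0.20, adjusted p = 0.00488)), and RCL1, which acts in ribosomal RNA cleavage, changed by -0.94 (SE 0.19). MYC, the transcription factor gene that drives growth and ribosome production, had 6261, 4164 and 5112 in ARA-C cultures and 7797 to 11696 (median 9149) in vehicle cultures (-0.88 (SE 0.15, adjusted p = 0.000624)). The groups did not overlap for these 4 genes, and over all genes the ARA-C arrays lay below all vehicle arrays for 13.35%. The 4 were named for large changes that passed, so the lack of overlap is partly built in. At 2xEC50 for 24 h the change of MYC was -0.29 and did not pass (adjusted p = 0.34). In a fit of all 68 arrays of the series, in which 31 of the 96 named probe sets no longer passed, the calls of MYC, RRS1 and RCL1 were lost. Of 23 cytosolic ribosomal protein genes none rose and 1 fell.

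Of 15 feedback genes of the MAPK pathway 4 fell, none rose and 11 did not pass the test (median -0.36). Over all genes 8.37% were lower and 7.55% higher. At 2xEC50 for 24 h 3 of these genes rose and none fell (median 0.37), where 7.38% of all genes were higher and 1.81% lower (median 0.23). At EC50 the counts were 3 higher and none lower on day 3 (median 0.44), and 4 higher and 5 lower on day 5 (median 0.29). Over all genes 11.4% were higher and 6.49% lower on day 3 (median 0.25). On day 5 these shares were 9.20% and 41.0% (median -0.35). SPRY4, an inhibitor of receptor tyrosine kinase signaling, had 1164, 955 and 938 in ARA-C cultures, against 1471 to 1984 (median 1826) in vehicle cultures (-0.82 (SE 0.15, adjusted p = 0.00131)). DUSP5, a nuclear ERK phosphatase gene, had 499, 424 and 512 in ARA-C cultures and 753 to 861 (median 805) in vehicle cultures (-0.75 (SE 0.12, adjusted p = 0.000253)). DUSP4 changed by -0.59 (SE 0.17), which did not pass with the plate block (adjusted p = 0.15) or without ARA-C replicate 1 (adjusted p = 0.0523) or ARA-C replicate 2 (adjusted p = 0.131), and ETV5, an ETS factor downstream of ERK, by -0.38 (SE 0.11), lost without ARA-C replicate 2 (adjusted p = 0.0687) or ARA-C replicate 3 (adjusted p = 0.123). Immediate early and AP-1 genes were split, with 5 higher, led by EGR4, and 5 lower, among them SRF, a serum response factor (-0.82 (SE 0.18)), of 21 (median -0.09). The call for SRF was lost without ARA-C replicate 3 (adjusted p = 0.0607).

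**Figure D3:**
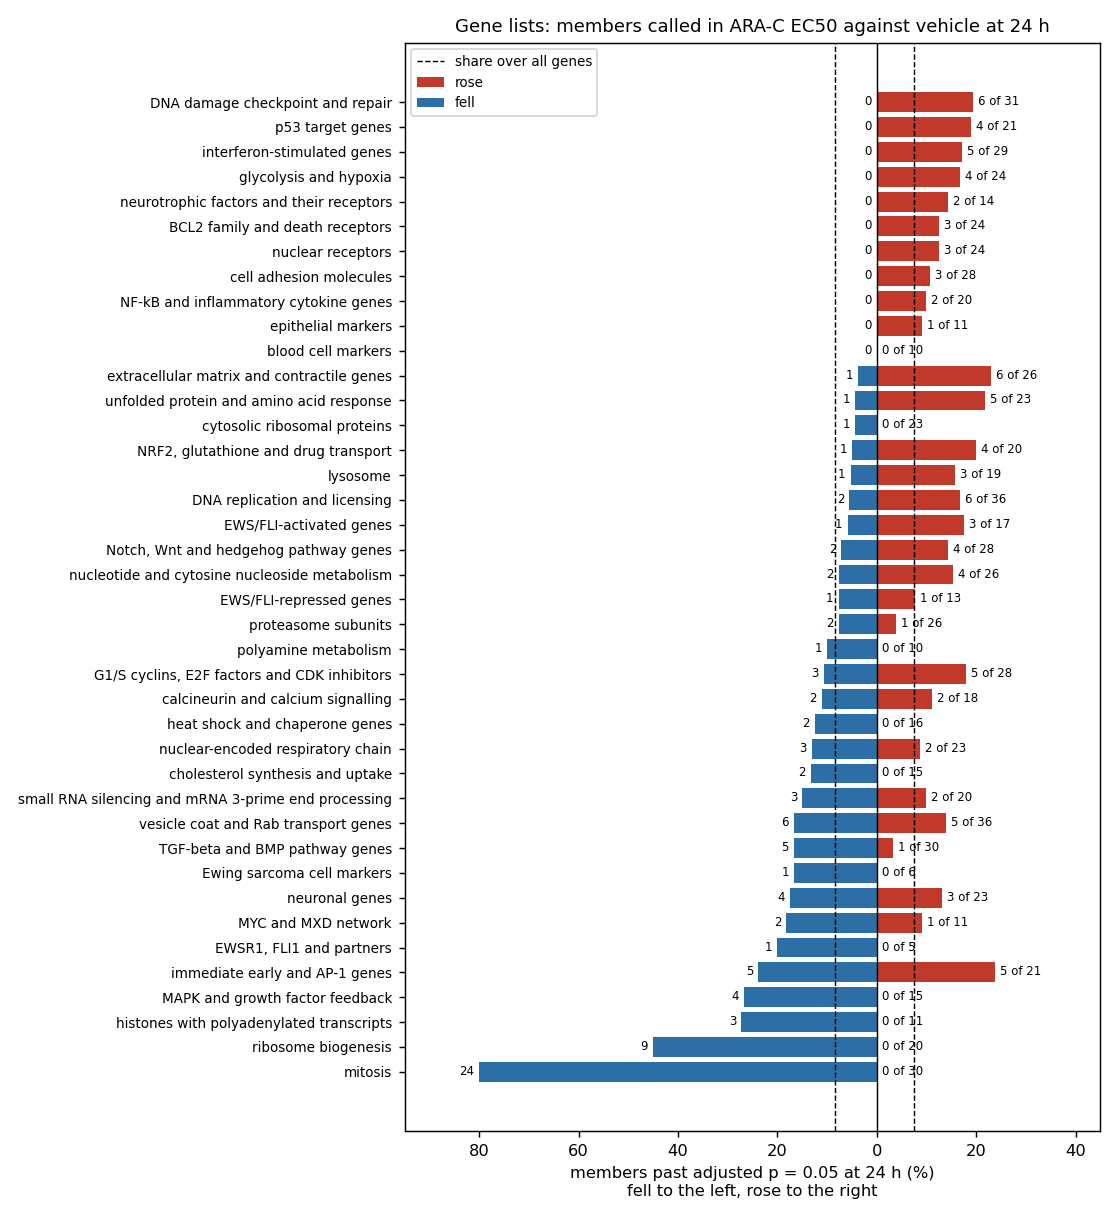
Share of the measured members of each gene list called higher (red, to the right) or lower (blue, to the left) in ARA-C EC50 against vehicle at 24 h, with counts beside the bars and dashed lines at the shares over all genes, 7.55% and 8.37%. Mitosis (24 of 30 lower) and ribosome biogenesis (9 of 20 lower) reach furthest to the left.

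Stress and innate immune genes moved in small numbers, beside 7.55% of all genes higher and 8.37% lower. Of 29 interferon-stimulated genes 5 rose and none fell (median 0.48). RIGI, a sensor of viral RNA (chromosome 9, 32455302 to 32526196), had 209, 174 and 176 in ARA-C cultures, against 66.2 to 85.5 (median 75.7) in vehicle cultures (1.29 (SE 0.22, adjusted p = 0.000624)), and IFIT1, which binds foreign RNA caps, had 202, 209 and 183 in ARA-C cultures and 81.8 to 109 (median 101) in vehicle cultures (1.02 (SE 0.21, adjusted p = 0.00317)). Of 20 NF-κB and cytokine genes 2 rose, CXCL2 and IL1B, and with the plate block 3 rose and 1 fell. The call for CXCL2 (1.55 (SE 0.42)) was lost without ARA-C replicate 1 (adjusted p = 0.0506) or ARA-C replicate 2 (adjusted p = 0.14) and that for IL1B (0.88 (SE 0.21)) without ARA-C replicate 1 (adjusted p = 0.0642). Of 23 genes of the unfolded protein and amino acid response 5 rose and 1 fell (median -0.05), and with the plate block 7 rose and none fell (median 0.15). DDIT4, an inhibitor of mTORC1 induced by stress, had 1287, 1107 and 849 in ARA-C cultures, against 233 to 607 (median 377) in vehicle cultures (1.54 (SE 0.24, adjusted p = 0.000193)). Of 16 heat shock genes 2 fell and none rose (median 0.02), and with the plate block 2 fell and 2 rose. HSPA1B, an inducible HSP70 gene with a near-identical copy that its probes may also read, had 666, 603 and 595 in ARA-C cultures and 953 to 1239.5 (median 1111) in vehicle cultures (-0.84 (SE 0.12, adjusted p = 5.4e-05)).

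Some genes of the matrix list and of the glycolysis and hypoxia list rose, and the counts here stand beside 7.55% of all genes higher and 8.37% lower. Among 26 genes of the extracellular matrix and contraction, 6 rose and 1 fell (median 0.24). COL1A1, a fibrillar collagen gene, had 3207, 3157 and 2898 in ARA-C cultures, against 1598 to 1977 (median 1659) in vehicle cultures (0.86 (SE 0.15, adjusted p = 0.000507)). COL6A1 and COL5A1 rose by 0.78 (SE 0.14) and 0.63 (SE 0.11). Of 24 glycolysis and hypoxia genes 4 rose and none fell (3 and 1 with the plate block, median 0.07), among them NDRG1, a hypoxia-induced gene (1.07 (SE 0.17)), and the glucose transporter gene SLC2A1 (0.78 (SE 0.15)). Of 28 adhesion genes 3 rose (5 with the plate block). Besides CEACAM1, MCAM, an endothelial and melanoma adhesion molecule, had 424, 359 and 316 in ARA-C cultures and 124 to 232 (median 153) in vehicle cultures (1.11 (SE 0.22, adjusted p = 0.00217)). Of 24 nuclear receptor genes 3 rose (2 with the plate block), VDR first. PPARD, a receptor for fatty acids, had 951, 907 and 975 in ARA-C cultures and 397 to 578 (median 479) in vehicle cultures (0.97 (SE 0.15, adjusted p = 0.000208)).

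Developmental pathways moved in single genes, beside 7.55% of all genes higher and 8.37% lower. Of 30 TGF-β and BMP pathway genes 1 rose and 5 fell (1 and 3 with the plate block, median -0.05). BMP2, a bone morphogenetic ligand (chromosome 20, 6767686 to 6780246), had 902, 760.4 and 924 in ARA-C cultures, against 273 to 402 (median 325) in vehicle cultures (1.39 (SE 0.17, adjusted p = 1.5e-05)). ID2, an inhibitor of differentiation that BMP signals induce in many cells, had 4686, 3954 and 4364 in ARA-C cultures and 7316 to 8641 (median 7751) in vehicle cultures (-0.86 (SE 0.11, adjusted p = 1.7e-05)). The ligand gene was higher in every treated culture and ID2 lower, which held for 11.02% and 13.35% of all genes. Both were named for large changes that passed, so this is partly built in. Of 28 Notch, Wnt and hedgehog genes 4 rose and 2 fell (2 and 2 with the plate block, median -0.17). HEY1, a Notch target, had 1425, 1708 and 1804 in ARA-C cultures and 596 to 948 (median 726) in vehicle cultures (1.12 (SE 0.18, adjusted p = 0.000303)). WNT5A, a noncanonical Wnt ligand, had 1268, 1391 and 1232 in ARA-C cultures and 565 to 868 (median 693) in vehicle cultures (0.90 (SE 0.16, adjusted p = 0.000687)). LRP6, a Wnt coreceptor gene, was lower, with a change of -0.90 (SE 0.16).

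Of 23 neuronal genes 3 rose and 4 fell (1 and 4 with the plate block, median 0.07), against 7.55% and 8.37% of all genes. NPY, which encodes neuropeptide Y (chromosome 7, 24284190 to 24291862), had 833, 863 and 852 in ARA-C cultures, against 334 to 467 (median 387) in vehicle cultures (1.10 (SE 0.13, adjusted p = 1.2e-05)), while NEFM, a neurofilament gene, had 317, 230.2 and 233 in ARA-C cultures and 388 to 671 (median 566) in vehicle cultures (-1.09 (SE 0.17, adjusted p = 0.000193)). STMN2, a microtubule regulator of growing axons, had 15.1, 11.4 and 2.01 in ARA-C cultures and 25.3 to 67.4 (median 45.9) in vehicle cultures (-1.91 (SE 0.41, adjusted p = 0.00387)). The peptide gene was thus higher and the cytoskeletal genes lower.

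The genes of the EWS/FLI program that passed the test at 24 h moved in both directions. Of 17 EWS/FLI-activated genes 3 rose and 1 fell (median 0.18), and of 13 EWS/FLI-repressed genes 1 rose and 1 fell (3 and 1 with the plate block, median 0.08), against 7.55% and 8.37% of all genes. IGFBP5, an IGF-binding protein gene of the repressed list, had 141, 149 and 120.1 in ARA-C cultures, against 45.6 to 68.4 (median 57.5) in vehicle cultures (1.26 (SE 0.35, adjusted p = 0.0188)), a call lost without ARA-C replicate 1 (adjusted p = 0.0561), ARA-C replicate 2 (adjusted p = 0.0883) or ARA-C replicate 3 (adjusted p = 0.0566). BCL11B, a zinc finger gene among the Ewing sarcoma markers (chromosome 14, 99169287 to 99272197), had 553, 500.1 and 393 in ARA-C cultures and 900.3 to 1654 (median 1184) in vehicle cultures (-1.35 (SE 0.22, adjusted p = 0.000301)). EWSR1 itself gave -0.09 (SE 0.08, adjusted p = 0.558). FLI1, whose 3′ part is in the fusion transcript, gave -0.44 (SE 0.14, adjusted p = 0.0343) at its brightest probe set, lost without ARA-C replicate 2 (adjusted p = 0.13), ARA-C replicate 3 (adjusted p = 0.153), vehicle replicate 2 (adjusted p = 0.0656), vehicle replicate 3 (adjusted p = 0.0659) or vehicle replicate 4 (adjusted p = 0.0528) and in 6 of 12 other settings, quantile normalization and equal array medians among them. A dimmer probe set gave -2.02 (SE 0.46, adjusted p = 0.00578). ERG, ETV1 and TAF15 did not pass the test.

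**Figure D4:**
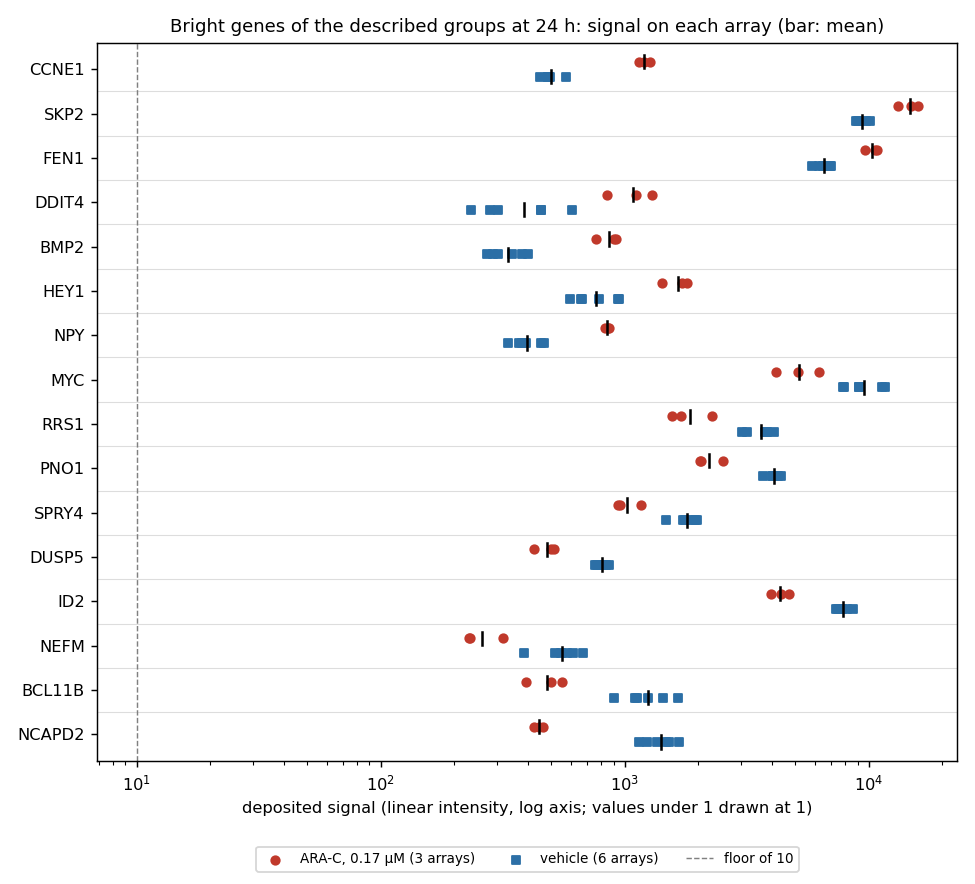
Deposited signals (linear intensity on a log axis) of 16 brighter genes of the described groups at 24 h, with the 3 ARA-C arrays as red circles above the 6 vehicle arrays as blue squares and black bars for group means. From CCNE1 down to NPY the ARA-C arrays lie to the right of the vehicle arrays, and from MYC down to NCAPD2 to the left. The genes were named for large changes that passed, so this is partly built in.

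Promoters of the genes that moved are shown to set a few motifs beside the values: E2F sites (TTTCGCGC, TTTGGCGC, TTTCCCGC or TTTGCCGC), cell cycle homology regions (CHR, TTTGAA or TTTAAA) and CCAAT boxes (CCAAT), each on both strands and without overlap among the matches shown. The windows run from 250 bases before to 50 after a start annotated by RefSeq (GRCh38.p14), the first window given for each of 27305 genes, which for ACACB and PIP5K1A lies inside the span of the gene given above, with matches in capitals. GINS3 (chr16:58392221-58392520, plus strand) stands for the G1/S, DNA replication and nucleotide genes that rose. PIP5K1A (chr1:151198302-151198601, plus strand) stands for the large falls and ACACB (chr12:109116337-109116636, plus strand) for the large rises. PLK1 (chr16:23678639-23678938, plus strand), a mitotic kinase gene whose change was -1.66 (SE 0.19, adjusted p = 7.1e-06), stands for the mitosis genes.
GINS3: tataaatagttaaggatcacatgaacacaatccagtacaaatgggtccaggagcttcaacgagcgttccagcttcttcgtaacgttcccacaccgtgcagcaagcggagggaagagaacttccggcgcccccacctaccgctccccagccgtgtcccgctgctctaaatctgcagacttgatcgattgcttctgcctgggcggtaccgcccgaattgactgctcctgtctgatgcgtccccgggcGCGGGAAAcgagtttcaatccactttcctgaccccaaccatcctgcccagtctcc
PIP5K1A: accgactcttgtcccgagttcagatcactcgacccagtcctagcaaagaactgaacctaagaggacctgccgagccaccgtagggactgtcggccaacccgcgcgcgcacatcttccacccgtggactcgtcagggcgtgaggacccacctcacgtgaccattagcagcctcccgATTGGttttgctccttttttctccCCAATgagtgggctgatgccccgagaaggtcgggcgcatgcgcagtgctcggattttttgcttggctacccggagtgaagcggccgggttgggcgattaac
ACACB: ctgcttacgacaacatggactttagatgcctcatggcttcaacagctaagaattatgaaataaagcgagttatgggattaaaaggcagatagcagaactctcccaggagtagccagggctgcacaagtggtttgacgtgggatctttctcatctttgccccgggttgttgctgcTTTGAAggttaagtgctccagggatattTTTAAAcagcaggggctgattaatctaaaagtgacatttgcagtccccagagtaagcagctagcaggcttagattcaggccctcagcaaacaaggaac
PLK1: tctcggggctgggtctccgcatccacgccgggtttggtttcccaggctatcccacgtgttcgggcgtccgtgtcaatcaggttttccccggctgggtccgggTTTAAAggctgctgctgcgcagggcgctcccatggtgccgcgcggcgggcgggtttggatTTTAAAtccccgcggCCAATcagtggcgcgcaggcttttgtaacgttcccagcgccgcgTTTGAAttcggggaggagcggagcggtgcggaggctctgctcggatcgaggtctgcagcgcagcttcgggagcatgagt
An E2F match was in 3.33% of all promoters, a CHR match in 24.3% and a CCAAT match in 35.7%. Of the 24 mitosis genes that fell 19 were matched to a promoter, of which 15 (78.9%) held a CHR and 16 (84.2%) a CCAAT match. Of the 15 G1/S, DNA replication and nucleotide genes that rose 14 were matched. An E2F match was in 3 (GINS3, GINS2 and E2F3), a CHR match in 5 and a CCAAT match in 5. Among the 15 largest rises 10 were matched, with a CHR match in ACACB and a CCAAT match in CACNA1I, and of the 15 largest falls 12, with CHR in ATM and CCAAT in 4. Of the 9 ribosome biogenesis genes that fell 8 were matched, with CCAAT in 3. The groups by list were searched after their values were seen, and these shares are a description.

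Doxorubicin at its EC50 for 24 h was compared with ARA-C directly, with no vehicle array in the contrast. The compounds differed in either direction for 6.64% of genes. Of the 15 largest rises 6 were higher with ARA-C than with doxorubicin, and these were chosen for being high in the ARA-C arrays, so the count is partly built in. CCNE1 was 1.09 higher on the log2 scale with ARA-C than with doxorubicin (SE 0.15, adjusted p = 0.000126), VDR 1.63 (SE 0.24, adjusted p = 0.000347) and CEACAM1 2.42 (SE 0.50, adjusted p = 0.00605). WNT5A moved in opposite directions, with a change of 0.90 with ARA-C and -1.60 with doxorubicin, each against vehicle (adjusted p of the difference = 2.4e-08). NEFM (-1.09 with ARA-C and 0.47 with doxorubicin, adjusted p = 4.6e-05) and DUSP5 (-0.75 and 0.28, adjusted p = 9.9e-05) also differed. The difference for FANCI, 0.03 (SE 0.09), did not pass (0.56 with ARA-C and 0.53 with doxorubicin, adjusted p = 0.927). With only the 6 compared arrays in the fit the calls of CCNE1 (adjusted p = 0.0653), VDR (adjusted p = 0.0548), CEACAM1 and NEFM (adjusted p = 0.0516 for both) were lost, as were 30 of the 33 differences called among the named probe sets, and those of WNT5A (adjusted p = 0.0162) and DUSP5 (adjusted p = 0.0425) passed. Doxorubicin replicate 2 gave 0.15 for the 3′ to 5′ ratio of ACTB, while replicates 1 and 3 gave 1.95 and 1.67, and without it these 6 genes passed.

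At 2xEC50 for 24 h most of the early rises were called again, and 1 of the early falls was. The second of its 3 arrays stood apart, with 0.94% of its values under 10 and a median signal of 188, against 19.8% and 20.7% and medians of 141 and 131 in replicates 1 and 3. In cells on 0.34 µM, against the vehicle arrays of their plate part, 7.38% of genes were higher and 1.81% lower. Vehicle replicates 4 to 6 serve both doses, and the genes were chosen for their EC50 values, so that smaller changes elsewhere are partly built in. Of the 15 largest rises all 15 had the same sign at 2xEC50 and 11 were called, with a median of 1.86. The 15 largest falls held 5 that had the same sign, of which 1 (DHRS2, -2.30) was called, and the median was 0.11. Over all genes the median change at 2xEC50 was 0.23, and when arrays were scaled to equal medians, which gave 248 genes higher and 2247 lower over all genes at this dose, 8 of the rises and 1 of the falls were called. Without replicate 2 of 2xEC50, a setting chosen after seeing the data, 545 genes were higher and 148 lower, 8 of the rises (median 1.70) and 1 of the falls (median 0.10) were called, and 7 of the falls had the same sign. EGR4 changed by 2.63 at 2xEC50 (adjusted p = 6.1e-05), CEACAM1 by 3.38 (adjusted p = 0.000199) and DDIT4 by 2.16 (adjusted p = 1.1e-06). GDF15 changed by 3.50 at 2xEC50 and 1.35 at EC50, each against vehicle arrays of its plate part (1.02 at EC50 against all vehicle arrays). Between doses 2.90% of genes differed in either direction, a count that moved with nearly every setting. Without replicate 2 of 2xEC50, 26 probe sets were higher and 3 lower in this contrast, against 533 and 111 with it.

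Part of the early changes were seen again on days 3 and 5 of the EC50, whose arrays are not those of 24 h. Replicate 3 of the ARA-C arrays of day 3 stood apart, with 0.22% of its values under 10 and a median signal of 213, against 19.45% and 20.1% and medians of 129.0 and 123 in replicates 1 and 2. Over all genes 11.4% were higher and 6.49% lower on day 3, and 9.20% higher and 41.0% lower on day 5, and the median changes of all genes were 0.25 and -0.35. Vehicle arrays of day 5 differed by plate part, with median signals of 108.7 to 119.7 in rows A-F and 154.5 to 157.8 in rows G-H. Their 3′ to 5′ ratios of ACTB were 1.92 to 2.08 and 0.529 to 0.664. All ARA-C arrays of day 5 came from rows A-F. The day 5 fit pooled both parts without a plate block, so its counts and changes also hold this difference, whose part was not tested. Of the 15 largest rises 11 were called higher on day 3 and 4 on day 5, with medians of 1.96 and 0.71, and APOBEC3G was called lower on day 5 (-1.57). Among the 15 largest falls 5 and 8 were called lower, with medians of -0.93 and -1.22. With arrays scaled to equal medians these counts were 9 and 6 for the rises and 10 and 6 for the falls. Without replicate 3 of day 3, also chosen after seeing the data, 609 genes were higher and 472 lower on day 3, the median of all genes was 0.00, and 5 of the rises (median 1.96) and 2 of the falls (median -1.08) were called. Between the times 12.2% of genes changed by different amounts in either direction.

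EGR4 (3.68 on day 3 and 3.40 on day 5), VDR (2.73 and 2.79) and CEACAM1 (3.92 and 2.67) were called higher on both days, on day 3 also without replicate 3. NPY was higher still, by 2.82 on day 3 (adjusted p = 2.4e-11) and 2.27 on day 5 (adjusted p = 3.6e-11). DDIT4 was near vehicle on day 3 (0.23, adjusted p = 0.55) and lower on day 5 (-2.74, adjusted p = 1.2e-09). STMN2, lower at 24 h, was higher on day 3 (2.42, adjusted p = 0.00117) and lower on day 5 (-2.04, adjusted p = 0.000585). SPRY4, lower at 24 h, changed by 0.48 on day 3 (adjusted p = 0.121) and was higher on day 5, by 0.80 (adjusted p = 0.00191). CCNE1 did not pass on day 3 (0.56, adjusted p = 0.132) and was higher on day 5 (1.08, adjusted p = 0.000623). PIP5K1A was lower on both days (-1.60 and -2.24).

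**Figure D5:**
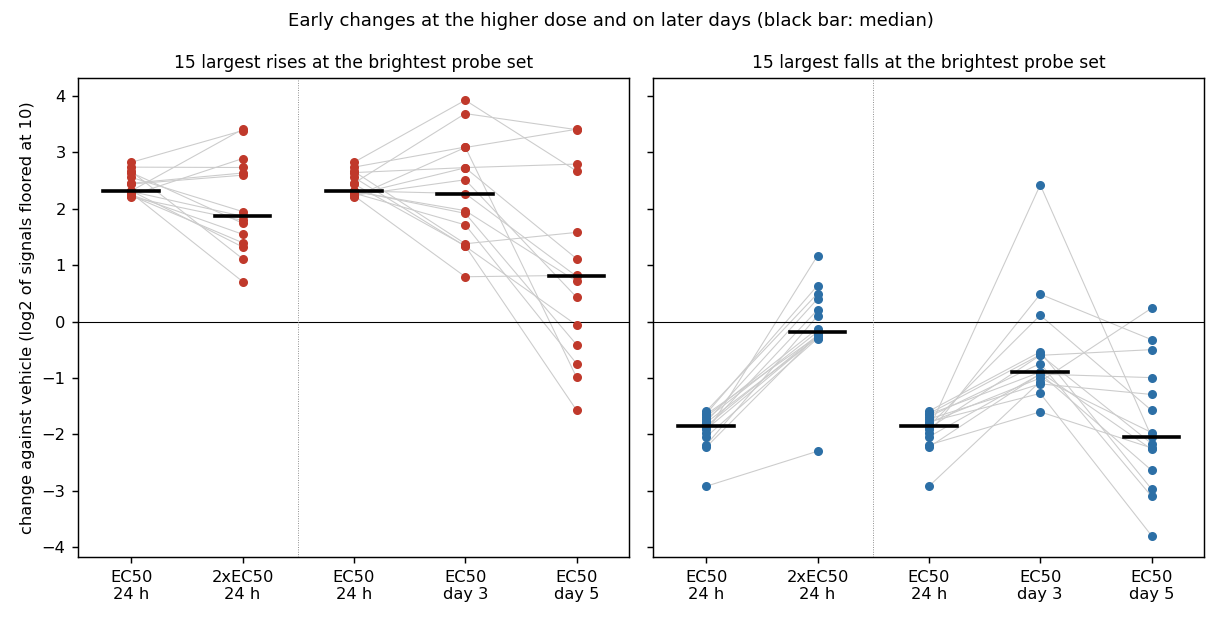
Log2 change against vehicle of the 15 largest rises (left, red) and 15 largest falls (right, blue), here chosen among the brightest probe sets of genes and so in part other genes than the 15 of the text, at EC50 and 2xEC50 after 24 h and at EC50 after 24 h, 3 days and 5 days, with grey lines joining a gene and black bars for medians. The rises keep a median of 1.86 at 2xEC50 and of 2.27 on day 3, while the falls have a median of -0.18 at 2xEC50.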

How the data were processed

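RNA of A673 cells was hybridized to Affymetrix arrays in plates. The authors deposited linear MAS5 intensities, brought to a common mean per array. The MAS5 version and detection calls are not given in the sources used here. Of 22930 probe sets 715 controls were left out. Symbols came from the platform annotation (19230 probe sets with 1 symbol, 125 with several, 2860 with none), positions from RefSeq GRCh38.p14, and plate rows from the study's sample list. Signals were floored at 10 and set on the log2 scale. All 24 arrays of 24 h entered 1 limma fit (version 3.58.1, R 4.3.3, intensity trend, 17 residual degrees of freedom), with Benjamini-Hochberg adjustment over 22215 probe sets and a threshold of 0.05. Later days used the 26 arrays of vehicle and ARA-C EC50. A gene of a list was read at its brightest probe set.

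Named genes were the 15 largest rises and falls outside mitosis that passed with and without the plate block, without overlap of the groups and with the higher mean above the 40th percentile, up to 4 members of each of the 40 lists, and genes of the fusion and of cytarabine handling. The members and lists were chosen with earlier results of these data known. Scripts were tested on simulated data. The number of arrays limits the precision. Alternatives were other sets of arrays, plate and replicate blocks, quantile and median scaling, other floors, a cap, brighter probe sets, no trend and leaving out arrays.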

Additional observations from a re-analysis of the deposited data

Results flagged for a closer look

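In 96 probe sets of named genes, 8 had 1 of the 6 vehicle cultures far from the others, where chance gives about 1 in 20. The check used log2 signals floored at 10, while the signals printed here are not floored. For GPR17 and CXCL2 all other vehicle signals lay under the floor. There any 1 signal over it is flagged, and the rate of 1 in 20 does not hold. Vehicle replicate 1 was the highest for GPR17 (24.9, the others 1.91 to 5.90) and UCK2 (3331, the others 2817 to 2996). Vehicle replicate 2 was the highest for VDR (78.1, the others 56.8 to 62.5), EGR4 (90.5, the others 37.7 to 51.4) and COL1A1 (1977, the others 1598 to 1690.0). Vehicle replicate 6 was the highest for CXCL2 (15.9, the others 1.20 to 6.599) and the lowest for ACACB (29.4, the others 58.6 to 79.96). SRSF5 was lowest in vehicle replicate 5 (27.9, the others 53.4 to 71.2).

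For 22 probe sets the mean change of days 3 and 5 differed from the 24 h change by limma on 26 arrays. The contrast shares the 24 h arrays with the choice of genes, so a difference toward 0 is partly built in. The later change was lower for DDIT4 (-2.79), APOBEC3G (-2.55), EFNA1 (-1.92), PPARD (-1.18), DCK (-1.05), IFIT1 (-0.99), FANCG (-0.98), ATR (-0.73), HEY1 (-0.68), DUT (-0.65), FANCI (-0.51) and the brightest probe set of CSTF2T (-1.03). It was higher for NPY (1.44), whose rise was larger later, and for the early falls of DHRS2 (2.50), PPP3R1 (2.13), STMN2 (2.10, a mean over 2.42 on day 3 and -2.04 on day 5 against vehicle), NEAT1 (2.06), SPRY4 (1.46), DUSP4 (1.398), DUSP5 (0.95), LRP6 (0.89) and the dimmer probe set of CSTF2T (1.90).

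For 11 probe sets the 24 h change at 2xEC50 differed from that at EC50, each against vehicle arrays of its plate part. It was higher at 2xEC50 for GDF15 (2.14), and lower for FEN1 (-0.68). The genes lower at EC50 were less low or not low at 2xEC50, with differences of 3.99 (STRN), 3.22 (NEAT1), 2.34 (SMTN), 2.19 (PIP5K1A), 1.55 (NCAPD2), 1.09 (LRP6), 1.07 (DUSP5), 1.06 (PLK1) and 0.80 (ETV5). Counts of this comparison moved with nearly every setting, and without 2xEC50 replicate 2, whose low signals stood apart, 1 of the 11 (DUSP5) passed. Without day 3 replicate 3 the later differences of EFNA1 and PPP3R1 did not pass.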

How the results depend on the processing

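No called change of a named gene turned its direction under any alternative, while uncalled changes changed sign without 1 array (CDA, TAF15 and ETV1), with quantile normalization (ETV1 and EWSR1) or with a floor of 32 (ERG). The balance of higher and lower calls turned with quantile normalization at 24 h and with quantile normalization and a common median between doses, as given here. For ARA-C against vehicle at 24 h, where 1281 probe sets were higher and 1850 lower, a fit of all 68 arrays, which includes 1 array with blood cell transcripts, gave 411 and 691 and ended 31 of the named calls, and quantile normalization gave 2015 higher and 1933 lower. Only the compared arrays gave 2834 lower, and the brightest probe set of each gene, chosen after the data were seen, 994 lower. Leaving out 1 array gave 672 to 1237 higher and 566 to 1884 lower. The replicate numbers do not pair the cultures (correlations of deviations between -0.013 and 0.013), and with the replicate block 682 were higher. The other alternatives stayed within 1.5 times of both counts, and the plate block gave 886 and 2065.

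For ARA-C against doxorubicin, 598 higher and 622 lower became 99 and 94 with 68 arrays, 49 and 26 with only the compared arrays, and 1038 and 986 with quantile normalization. The lower count was 396 with the replicate block and 390 without the intensity trend, and leaving out 1 array gave 248 to 552 higher and 169 to 807 lower, both lowest without ARA-C replicate 2. For the later change minus the 24 h change, 421 and 1679 became 234 and 771 with 68 arrays and 835 and 1082 with quantile normalization. Without the blood-like array 667 were higher. Leaving out 1 array gave 249 to 563 and 805 to 2508.

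For the 2xEC50 change minus the EC50 change, 533 and 111 became 249 and 12 with 68 arrays, 2247 and 355 without the blood-like array, 4032 and 797 with only the compared arrays, 277 and 376 with quantile normalization, 97 and 1593 with a common median, 1842 and 365 with only brighter probe sets, and 23 and 0 without the intensity trend. Leaving out 1 array gave 1 to 757 and 0 to 122, and 26 and 3 without 2xEC50 replicate 2, so this count carries little weight. A replicate block could not be fitted there. The cause of these shifts was not tested.

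For the 3′ to 5′ ratio, the difference of 0.973 for ACTB was 1.14 against vehicle arrays of rows A-F alone (exact permutation p = 0.1, the smallest possible) and the same within a replicate block (exact p = 0.25), and that of 0.333 for GAPDH was 0.412 in both. These and the runs without 1 array (0.871 to 1.17 and 0.299 to 0.381) were added after the data were seen. Dim signals under the floor of 10 limit what can be seen of genes that are low in either group.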

Other observations

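Groups not yet described moved in few members at 24 h with ARA-C against vehicle, beside 7.55% of all genes higher and 8.37% lower. Of 24 genes of the BCL2 family and death receptors 3 rose and none fell (1 and 1 with the plate block, median 0.06). Of 20 genes of NRF2, glutathione and drug transport 4 rose and 1 fell (median 0.10), and of 19 lysosome genes 3 rose and 1 fell (1 and 1 with the plate block, median -0.03). Of 36 vesicle coat and Rab transport genes 5 rose and 6 fell, and of 20 genes of small RNA silencing and mRNA 3′ end processing 2 rose and 3 fell. Of 15 cholesterol synthesis and uptake genes none rose and 2 fell (1 and 1 with the plate block, median -0.19). Respiratory chain genes (2 of 23 higher and 3 lower) and proteasome genes (1 of 26 higher and 2 lower) had medians of 0.01 and -0.04.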
